A study of Mus musculus with 6 samples.

Results

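Processed pseudogenes were followed by RNA sequencing of 6 libraries of AML12, an established line of mouse hepatocytes, all taken at 24 h. For the 3 libraries labelled PA/OA, the cells were treated with PA/OA, the series' modelling reagent, at concentrations given by the submitters as 400 and 800 nM. The 3 libraries labelled PP came from cells given 250 µg/ml of PP, and the labels do not settle whether those cells received PA/OA as well. The series title names Camellia oleifera meal peptides and the AMPK, ACC and CPT-1 pathway, and untreated control cells were not analysed here. Whether replicate libraries stem from separate cultures is not stated, so every p-value rests on the spread among these 6 libraries alone, and that spread may be technical. In such bulk libraries, fewer cells of a type and less RNA per cell cannot be told apart.

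The genes described are those that the deposited count table labels processed_pseudogene and that held 10 or more counts summed over the 6 libraries. They number 2110, of 9497 processed pseudogenes and 54532 genes in the table. They were chosen by that sum, which does not look at the groups, so the sum itself is a description and not a result. Of the other processed pseudogenes, 6082 were at 0 in every library and 1305 had 1 to 9 counts. Just inside the threshold, 59 genes with exactly 10 counts held 443 counts in PA/OA and 147 in PP. Just outside it, 63 genes with exactly 9 counts held 376 in PA/OA and 191 in PP. A low sum can be reached through either group: 555 members had 10 or more counts in PA/OA and fewer in PP, 139 the reverse, 1261 had 10 or more in both, and 155 had fewer in each. Counts of calls among the lowest members therefore describe the table and support nothing by themselves.

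A processed pseudogene is a copy of a messenger RNA that was reverse transcribed and inserted elsewhere in the genome, so that it usually lacks the introns and promoter of the gene it came from. Copies arise mostly from messages that are abundant in the germ line, such as those of ribosomal proteins and of the glycolytic enzyme Gapdh. Many have since gathered substitutions, frame shifts or stop codons, while young copies remain almost identical to the parent message, and reads of one can then match the other.

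How alike copy and parent are is shown first, since the counts of a copy can be read only with it. Each sequence is 60 bases of the pseudogene, 5′ to 3′ on its own strand, set above the same stretch of the closest protein-coding message, from GENCODE M21 on build mm10, and capitals mark the bases that differ. The first pair is Gm13394, the member with most counts, at chr2:28934235-28934294 on the minus strand, against bases 316 to 375 of the Gapdh coding sequence.

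Gm13394: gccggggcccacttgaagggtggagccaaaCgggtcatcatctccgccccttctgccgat

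Gapdh: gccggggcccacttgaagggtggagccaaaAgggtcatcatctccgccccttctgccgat

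Counted from the first base of the stretch, the difference was A31C, the parent's base written first. Over 1000 aligned bases it was the only mismatch, and the longest identical run was 654 bases. The second pair is Gm15772 at chr5:3236577-3236636 on the plus strand against bases 147 to 206 of the coding sequence of Rpl26, a protein of the large ribosomal subunit. It differed by C31T here and at 2 of 438 bases in all.

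Gm15772: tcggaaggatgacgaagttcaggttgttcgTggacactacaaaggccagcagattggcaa

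Rpl26: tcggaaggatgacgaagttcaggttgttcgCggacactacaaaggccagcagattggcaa

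The third is Rps2-ps13 at chrX:52898761-52898820 on the plus strand against bases 174 to 233 of the coding sequence of Rps2, a protein of the small subunit. It differed by T31C here and at 7 of 882 bases in all.

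Rps2-ps13: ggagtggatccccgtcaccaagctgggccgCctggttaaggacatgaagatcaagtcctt

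Rps2: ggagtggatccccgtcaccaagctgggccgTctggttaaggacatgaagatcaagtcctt

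A more diverged copy is Gm13315 at chr2:14721273-14721332 on the plus strand, against bases 141 to 200 of the coding sequence of Ldha, lactate dehydrogenase A, with 5 differences in the stretch.

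Gm13315: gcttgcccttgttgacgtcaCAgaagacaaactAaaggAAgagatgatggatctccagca

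Ldha: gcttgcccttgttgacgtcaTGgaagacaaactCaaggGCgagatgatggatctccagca

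The most diverged of those shown is Gm13854 at chr6:33376632-33376691 on the minus strand, against bases 841 to 900 of the coding sequence of Hspa8, the constitutive heat shock cognate chaperone, with 14 differences.

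Gm13854: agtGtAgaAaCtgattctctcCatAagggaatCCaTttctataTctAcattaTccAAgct

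Hspa8: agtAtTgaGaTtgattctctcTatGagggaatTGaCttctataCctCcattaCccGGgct

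Of the 2110 members, 2091 aligned to a protein-coding message, of 973 genes in all, and 19 did not. Identity over the aligned bases ran from 63.9% to 100%, with a median of 96.3%. It was 98% or more in 694 members, and 92 members were 100% identical. These 694 held 92.0% of the members' counts. The reads' placement is not recorded in the table, and the sources used here do not give how reads matching several places were counted. Counts of a near-identical copy and of its parent therefore cannot be told apart, and each value below is the count assigned to that gene.

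Library totals ran from 24113169 to 32560589 counts. TMM scaling factors, which edgeR sets so that most genes keep their level, were at most 1.18 in PA/OA and 0.842 to 0.868 in PP, and the common biological variation was 8.22%. All 12 hepatocyte markers were tested; they summed to 2796 to 3005 CPM (TMM-scaled counts relative to library size) in PA/OA and 3711 to 4090 in PP, and 3 rose and 4 fell. Alb was at 247 to 401 counts in every library, while keratins Krt8 and Krt18 made up most of the sum. Of 5 macrophage markers, Adgre1 and Clec4f were at 0, and the sum went from 3.11 to 3.76 CPM in PA/OA to 26.5 to 29.7 in PP, mostly through Cd68. Of 5 cholangiocyte markers, Epcam was at 0 and the other 4 rose, summing to 2412 to 2535 CPM in PA/OA and 4086 to 4531 in PP. The sums were 3.87 to 5.28 and 1.79 to 3.59 CPM for 5 stellate cell markers, and 0.539 to 1.49 and 0.367 to 1.02 for 5 endothelial markers. The part of these in the results was not tested.

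Processed pseudogenes took a larger share of the library in PP. They held 1.35%, 1.38% and 1.43% of all counts in the 3 PA/OA libraries and 1.84%, 1.94% and 1.81% in the 3 PP libraries. The groups did not overlap, at 1.39% ± 0.0397 and 1.86% ± 0.0713 (SD, n = 3 each). Much of this was a single gene: without Gm13394, the Gapdh copy, the shares were 1.19% to 1.27% and 1.36% to 1.43%, still apart. With protein-coding counts as the denominator, the shares were 1.46% ± 0.0429 and 1.93% ± 0.0752. For comparison, models of the classes TEC, antisense, sense intronic and lincRNA, without Malat1 and Neat1, held 1.13% ± 0.0444 in PA/OA and 0.410% ± 0.0109 in PP.

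Gene by gene, the members split in both directions. In edgeR's quasi-likelihood test over 21055 genes, at an adjusted p of 0.05, 340 members were higher in PP, 464 were lower and 1306 were not called. That is 16.1% higher and 22.0% lower, or 38.1% in either direction, while of all genes tested 27.2% were higher, 35.7% were lower and 62.9% were called. The median log2 fold change, PP relative to PA/OA throughout, was -0.08 for the members and -0.23 for all genes tested. It was 0.01 for 13895 protein-coding genes, -0.35 for 111 transcribed processed pseudogenes, -1.05 for 143 unprocessed pseudogenes, -1.33 for 870 lincRNAs and -1.60 for 1205 antisense genes. For 182 sense intronic genes it was -1.88, and for 1251 TEC models -2.28. Scaling by library size alone gave 178 members higher and 643 lower, with a median of -0.53 where that of all genes was -0.68. Removing each library's trend with abundance gave 622 higher and 250 lower, with a median of 0.55, so neither the split nor the sign of the median holds across scalings.

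With TMM scaling, the direction went with the number of counts. Of 657 members with 10 to 29 counts, 1.37% were higher and 24.0% lower, against 2.86% and 25.9% of all genes in that range. Of 682 with 30 to 99 counts, 3.81% were higher and 28.3% lower, against 3.87% and 39.6%. Of 581 with 100 to under 1000 counts, 29.4% were higher and 16.7% lower, against 15.6% and 48.7%. Of 190 members with 1000 counts or more, 134 were higher and 16 lower, which is 70.5% and 8.42%, against 50% and 31.9% of all genes. The medians from the lowest to the highest range were -0.83, -0.58, 0.30 and 0.61. With the abundance trend removed they were 0.08, 0.38, 0.87 and 0.58, and with library size alone -1.27, -1.02, -0.14 and 0.15, so the sign in the 3 lower ranges depends on the scaling. The member share lay close to the background in the lowest range, and above it for higher calls in the upper pair of ranges. With edgeR's filterByExpr, which keeps genes with enough counts in a group's worth of libraries, 1070 members were tested; 29.9% were higher and 21.5% lower, against 35.1% and 39.9% of all genes.

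**Figure D1:**
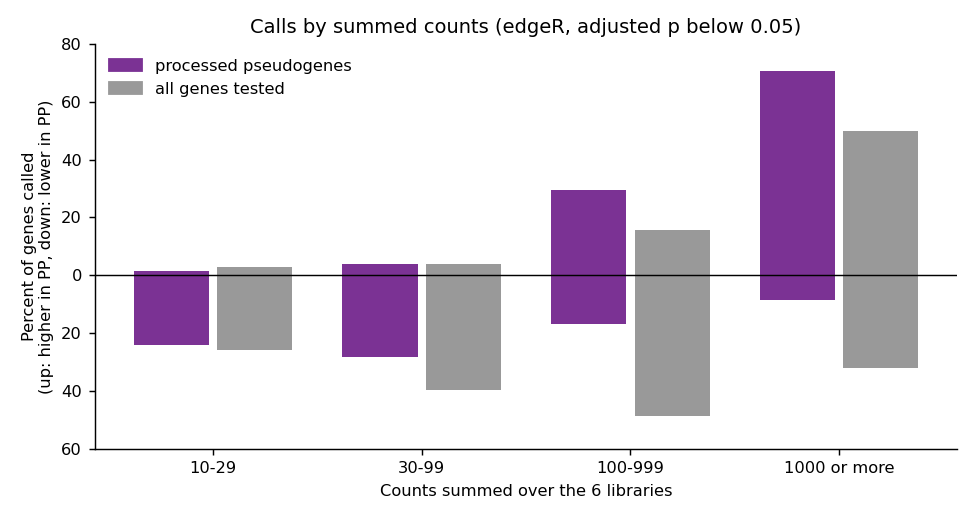
Percent of genes called higher in PP (upward) and lower in PP (downward) by summed counts, for processed pseudogenes and for all genes tested. At 1000 counts or more, 70.5% of the pseudogenes were higher and 8.42% lower, against 50% and 31.9% of all genes.

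Most counts sat in few genes. The median member had 56 counts, the highest had 562124, and the 20 highest held 67.4% of the members' counts. The 8 highest were all higher in PP by edgeR's test, and in each the groups did not overlap.

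Gm13394, the copy of the glycolytic enzyme Gapdh, lies at chr2:28933610-28934609 on the minus strand, inside an intron of Cfap77 on the same strand. It had 43286, 42536 and 38491 counts in PA/OA and 125921, 168766 and 143124 in PP, or 1381 ± 22.0 and 5566 ± 511 CPM (SD, n = 3 each). Every PP library was far above every PA/OA library. Its log2 fold change was 2.01 ± 0.06 (SE; edgeR adjusted p = 3.33e-19). Gapdh itself had 4252, 2784 and 2808 counts in PA/OA and 11682, 12342 and 9518 in PP, a log2 fold change of 1.98 ± 0.11 (edgeR adjusted p = 5.65e-14). Per kilobase of exon, Gm13394 was at 1381 and 5566 CPM in the 2 groups and Gapdh at 26.3 and 104. Cfap77, the gene around it, went the other way, from 1.86 ± 0.180 to 0.340 ± 0.150 CPM, with a log2 fold change of -2.42 ± 0.41 (edgeR adjusted p = 1.62e-05).

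Rps2-ps13, on chromosome X and over no other gene, had 26800, 25686 and 28807 counts in PA/OA and 34916, 44909 and 40145 in PP. That is 907 ± 99.3 and 1526 ± 96.9 CPM, with a log2 fold change of 0.75 ± 0.06 (SE; edgeR adjusted p = 2.32e-10). Rps2 had 18356 counts in all and a log2 fold change of 0.57 ± 0.10, which a prior robust to genes of large spread did not call (edgeR adjusted p = 0.0576). Its counts in PA/OA replicate 3, 1860, were well under the 3050 and 3116 of the other PA/OA libraries, while the pseudogene was highest there among PA/OA.

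Gm15772, the copy of Rpl26 on chromosome 5, had 26084, 27934 and 26463 counts in PA/OA and 29441, 38276 and 35283 in PP. That is 896 ± 60.4 and 1309 ± 80.2 CPM, with a log2 fold change of 0.55 ± 0.06 (edgeR adjusted p = 8.47e-09), while Rpl26, with 3035 counts in all, had 0.48 ± 0.12. The pseudogene thus carried about as large a difference as its parent, on many more counts. With each library's abundance trend removed, Rps2-ps13 and Gm15772 turned to -0.03 and -0.22.

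Rpl3-ps1, on chromosome X, had 18741, 19278 and 18651 counts in PA/OA and 25812, 33643 and 30407 in PP, a log2 fold change of 0.86 ± 0.06 (edgeR adjusted p = 1.81e-12). Its parent Rpl3, a large subunit protein at the catalytic core of the ribosome, had 0.61 ± 0.05. Per 100 counts of Rpl3, the pseudogene had 54.3, 55.2 and 61.4 in PA/OA and 67.4, 68.9 and 65.6 in PP, ranges that did not overlap.

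Gm4366 is a copy of Eef1g, a subunit of translation elongation factor 1. It went from 496 ± 8.23 to 806 ± 46.5 CPM, with a log2 fold change of 0.70 ± 0.05 beside 0.66 ± 0.05 for Eef1g. Gm4735, closest to the enolase gene Eno1b, went from 428 ± 32.4 to 768 ± 47.5 CPM, with 0.84 ± 0.06 beside 0.85 ± 0.06. Gm12191, a copy of the large subunit protein Rpl30 in an intron of Cnot6, went from 358 ± 17.4 to 627 ± 38.9 CPM, with 0.81 ± 0.06. Rpl30 had 0.33 ± 0.11, its libraries overlapped between the groups, it was not called with the robust prior (adjusted p = 0.257), and Cnot6 had -0.70 ± 0.06. Rpl34-ps1 went from 335 ± 19.4 to 563 ± 28.1 CPM, with 0.75 ± 0.06, beside 1.10 ± 0.10 for Rpl34. In all, 87 members had more summed counts than the protein-coding gene they resemble most.

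**Figure D2:**
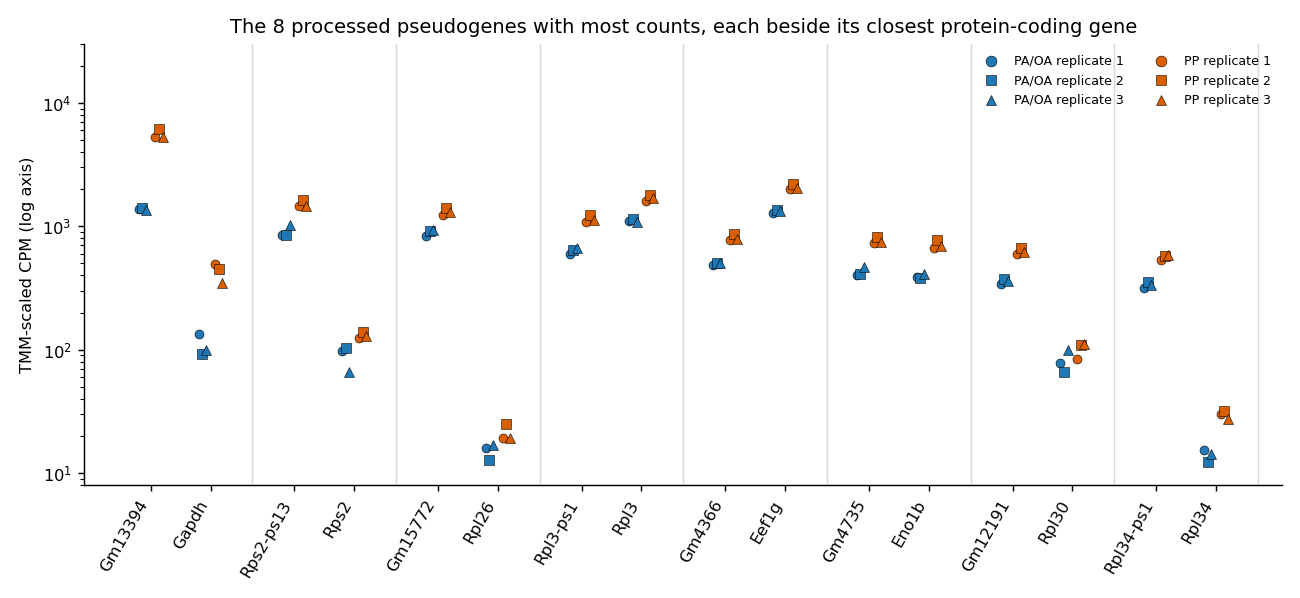
TMM-scaled CPM (log axis) in each library for the 8 processed pseudogenes with most counts and, beside each, the closest protein-coding gene. In all 8 pseudogenes the 3 PP libraries lie above the 3 PA/OA libraries, and 6 of them, all but Rpl3-ps1 and Gm4366, lie above the gene they resemble most in every library.

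The members were grouped by what the closest protein-coding gene makes; these groups were drawn up after values had been seen, and their counts are descriptions. The glycolytic group stood highest. Of 111 members closest to a glycolytic enzyme, 54 rose and 18 fell (48.6% and 16.2%, against 27.2% and 35.7% of all genes tested), with a median log2 fold change of 1.53, and of the 38 with identity of 98% or more, 34 rose and none fell, with a median of 1.77. Their 10 protein-coding genes all rose, with a median of 1.56. The copies of Gapdh made up 67 of the 111: 38 rose, 12 fell, and the median was 1.67. Among the 30 Gapdh copies of at least 98% identity, 27 rose and none fell, while of the 37 others 11 rose and 12 fell. These medians stayed above 0 under all 5 other scalings, at 1.08 or more for the glycolytic group.

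Gm5559, a Gapdh copy on chromosome 5 with an unbroken frame, had 1833, 1874 and 1621 counts in PA/OA and 5295, 6430 and 6199 in PP, a log2 fold change of 1.95 ± 0.06 (edgeR adjusted p = 8.18e-19). It was named after its values were seen. Of the 44 copies closest to another gene of the group than Gapdh, 16 rose, 6 fell and 22 were not called, with a median of 0.97. These 44 are not all copies of other named enzymes. Gm10358, a gene placed in the group with 63 counts in all, was the closest gene of 23. Of those 23, 6 rose and 3 fell, with a median of 1.30. Their summed counts did not rise, at 282, 294 and 327 in PA/OA and 205, 265 and 252 in PP. With Gm10358 included, the log2 ratio of the TMM-scaled sums was -0.07. The next 3 were picked as examples of copies that rose, after their values were seen. Gm6560 had 1.69 ± 0.08 beside 1.71 for pyruvate kinase Pkm. Pgam1-ps2 had 1.54 ± 0.11 beside 1.74 ± 0.05 for phosphoglycerate mutase Pgam1. Ldha-ps2 had 1.22 ± 0.16 beside 1.41 ± 0.05 for Ldha.

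Copies of ribosomal protein messages were the most numerous. Of 389 copies of large subunit proteins, 93 rose and 90 fell, and of 233 copies of small subunit proteins, 39 rose and 48 fell, with medians of 0.13 and 0.11. Those shares were 23.9% higher and 23.1% lower, and 16.7% and 20.6%, each under the 27.2% and 35.7% of all genes tested. Scaling by library size alone moved those medians to -0.32 and -0.34, and upper-quartile scaling to -0.01 and -0.03. Removing the abundance trend moved them to 0.65 and 0.70, with 141 copies higher and 45 lower, and 80 and 25. Among those with identity of 98% or more, 70 of 142 large subunit copies rose and 4 fell, and 31 of 67 small subunit copies rose and 1 fell. The medians there, 0.71 and 0.69, lay beside those of the protein-coding genes copied, 0.70 and 0.65, and stayed above 0 in each scaling tried. Of the 84 cytosolic ribosomal protein genes tested, 78 rose, 2 fell and the median was 0.67.

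The summed counts of the large subunit copies were 129635, 132739 and 126789 in PA/OA and 168446, 206418 and 189733 in PP. Those of the small subunit copies were 49017, 47493 and 50086, and 62172, 78037 and 71791. In each, every PP library was above every PA/OA library, before any scaling. The PP libraries were also all deeper, at 27418502 to 32560589 total counts against 24113169 to 26825673 in PA/OA, which raises unscaled sums in PP.

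In the other roles, 29.4% to 52.4% of the copies were called, against 62.9% of all genes tested. Of 45 copies of translation factors, 10 rose and 8 fell, with a median of 0.30 that turned to -0.15 with library size alone. Of 77 copies of chromatin and nucleolar proteins, such as those of Hmgb1 and Npm1, 8 rose and 17 fell. Of 63 copies of respiratory chain and ATP synthase subunits, 7 rose and 14 fell. Of 51 copies of hnRNP, SR and Y-box proteins, 5 rose and 10 fell; of 33 copies of heat shock proteins and chaperonin subunits, 4 rose and 12 fell. Of 22 copies of prolyl isomerases, 3 rose and 4 fell, of 21 copies of actins, tubulins, keratins and cofilin, 3 rose and 8 fell, and of 9 ferritin copies, 3 rose and 1 fell. Among those of at least 98% identity the counts leaned less to falls: 4 rose and 1 fell of 23 chromatin and nucleolar copies, 3 and 1 of 18 respiratory copies, 4 and 3 of 11 heat shock and chaperonin copies, and 4 and 4 of 20 hnRNP, SR and Y-box copies. With the abundance trend removed, the direction over all copies turned in several groups of this set. It became 12 higher and 4 lower for chromatin, 16 and 8 for respiratory and 14 and 7 for hnRNP, SR and Y-box proteins. Prolyl isomerase copies turned to 7 higher and 2 lower, and actin, tubulin, keratin and cofilin copies to 6 and 5. Heat shock and chaperonin copies still leaned to falls, at 5 and 6. None of 30 Hmgb1 copies rose and 5 fell, beside -0.03 ± 0.10 for Hmgb1.

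A parent could also be read from the gene name. Names of 263 members end in -ps with or without a number, and in 242 the stem is the symbol of a protein-coding gene of the table, 139 genes in all. The closest message by sequence was the same gene in 234 of the 242. In 239 pairs both genes were tested, and in 84 both were called, 72 in the same direction and 12 in opposite ones. The median difference, pseudogene minus parent, was -0.07 on the log2 scale, and the median size of the difference was 0.41. Over the 133 pairs whose pseudogene had at least 100 counts, these were 0.02 and 0.27, and 67 of 70 pairs called in both went the same way. Pearson's r between the pair's log2 fold changes was 0.30 over the 239 pairs and 0.56 over the 133, a description of points that share libraries and, where several copies have 1 parent, the parent.

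Among the 130 Rpl and Rps pairs, 50 pseudogenes rose and 12 fell, while of all genes tested 27.2% rose and 35.7% fell. In 62 of these pairs both genes were called, 51 in the same direction and 11 in opposite ones. Pearson's r between their log2 fold changes was 0.12. The pairs that follow are among those with most counts. Rps16-ps2, a copy without a mismatch over 441 bases, had 3545, 3330 and 3415 counts in PA/OA and 4872, 5945 and 5818 in PP. Its log2 fold change was 0.89 ± 0.06 beside 0.78 ± 0.05 for Rps16. Tpt1-ps3, a perfect copy of Tpt1, the translationally controlled tumour protein, had 0.80 ± 0.06 beside 0.76 ± 0.05. Rpl14-ps1 had 0.77 ± 0.07 beside 0.82 ± 0.06, and Rpl23a-ps3 had 0.71 ± 0.10 beside 0.74 ± 0.07. In these 4 pairs the count of the pseudogene per 100 counts of the parent overlapped between the groups.

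Some pairs came apart. Rps10-ps2 had 4923, 4556 and 4366 counts in PA/OA and 5763, 7364 and 6818 in PP, while Rps10 had 200, 169 and 218, and 478, 540 and 556. Both rose, but the pseudogene by 0.72 ± 0.06 and the parent by 1.62 ± 0.13 on the log2 scale. Per 100 counts of Rps10, the pseudogene had 2462, 2696 and 2003 in PA/OA and 1206, 1364 and 1226 in PP, which do not overlap. Rpl21-ps15 rose, at 1.18 ± 0.25, while Rpl21 fell, at -1.03 ± 0.24 (edgeR adjusted p = 0.000205 and 0.00055). Among the 12 pairs called in opposite directions, it was the only pseudogene that rose. The others fell while their parents rose, most with under 100 counts, held mainly in PA/OA. Per 100 counts of Rpl21, Rpl21-ps15 had 41.0, 33.1 and 34.9 in PA/OA and 219, 186 and 121 in PP. Of all 242 pairs, this ratio did not overlap between the groups in 71, of which 36 were among the 133 with at least 100 counts. The share of such ratios among other pairs of genes was not computed, so these counts are a description. A ratio within a library does not depend on the scaling, and 3 libraries against 3 cannot give an exact two-sided permutation p under 0.1.

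Copies of Rpl17, a large subunit protein, differed within a group by more than most. Because edgeR pulls each gene's spread toward that of all genes, p-values of such genes are given also with a prior robust to large spread, added after seeing the data. Rpl17-ps10, on chromosome 7, had 9077, 5549 and 8237 counts in PA/OA and 16498, 20068 and 11238 in PP, a log2 fold change of 1.27 ± 0.15 (edgeR adjusted p = 5.85e-08, or 0.0276 with the robust prior). Rpl17-ps3, on chromosome 12, had 4794, 8661 and 6561, and 10249, 6329 and 8431, and its groups overlapped. Its 0.53 ± 0.16 (edgeR adjusted p = 0.0062) was not called without PA/OA replicate 1 (adjusted p = 0.0506) or PP replicate 1 (adjusted p = 0.133), with DESeq2 (adjusted p = 0.216) or with the robust prior (adjusted p = 0.271).

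Rpl17 itself had 19943, 17476 and 12756 counts in PA/OA and 9632, 23027 and 27138 in PP. PP replicate 1 was the lowest library for Rpl17 and the highest for Rpl17-ps3. Its 0.43 ± 0.17 (edgeR adjusted p = 0.0351) was not called without PA/OA replicate 3, PP replicate 2 or PP replicate 3, nor with DESeq2, limma-voom, upper-quartile scaling or the robust prior (adjusted p = 0.405).

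The coefficient of variation in PP was 41.0% for Rpl17, 28.5% for Rpl17-ps10 and 31.1% for Rpl17-ps3. For the sum of Rpl17 and its 34 copies it was 7.92% in PP and 4.49% in PA/OA. That sum was 1070 ± 48.0 CPM in PA/OA and 1753 ± 139 in PP, and its libraries did not overlap between the groups, whereas those of Rpl17 did. Rpl17-ps5, named after its values were seen, had 670, 835 and 726 counts in PA/OA and 1445, 1725 and 1247 in PP.

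A similar pattern was seen at Ppia, which encodes the prolyl isomerase cyclophilin A, and its copy Gm10123, which is identical to it over 490 bases. Gm10123, also named after its values were seen, had 1203, 1224 and 1282 counts in PA/OA and 5799, 2907 and 3716 in PP, a log2 fold change of 1.97 ± 0.17 (edgeR adjusted p = 3.65e-10, or 0.0107 with the robust prior). Ppia, at 0.38 ± 0.09, was not called with that prior (adjusted p = 0.157) or with DESeq2 (adjusted p = 0.0927). It had 13115, 13666 and 11843, and 10109, 18413 and 15692. In PP replicate 1 the copy was highest and Ppia lowest among the PP libraries. The PP coefficient of variation was 44.7% for Gm10123, 22.3% for Ppia and 7.41% for the sum of Ppia and its 16 copies, which was 477 ± 19.3 CPM in PA/OA and 726 ± 53.8 in PP. The cause of the spread between libraries was not tested.

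**Figure D3:**
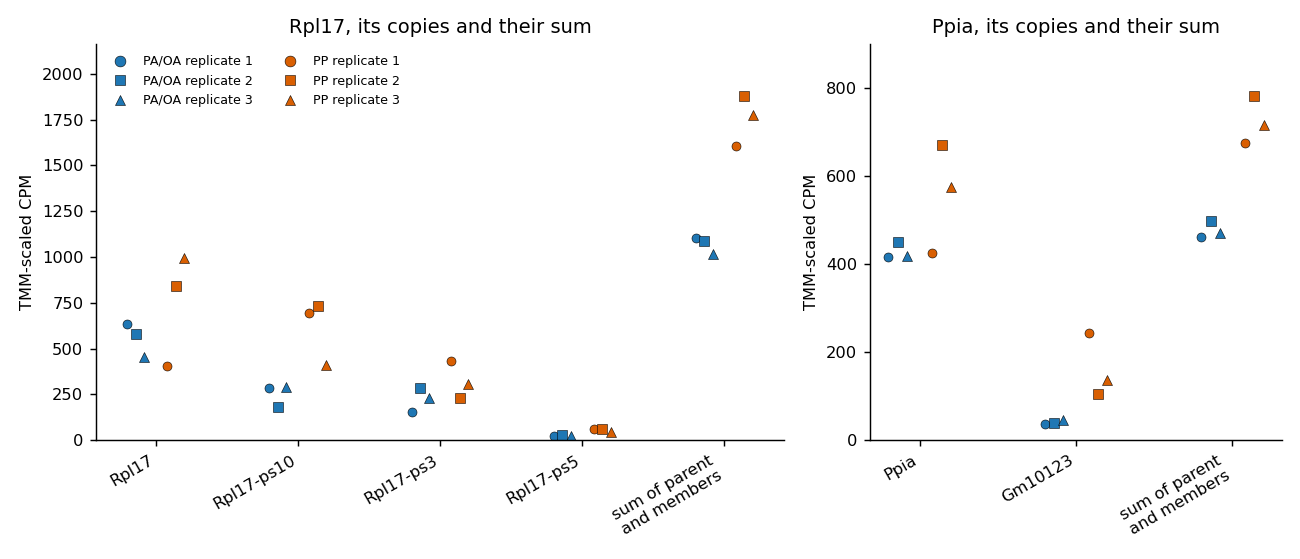
TMM-scaled CPM in each library for Rpl17 and 3 of its copies (left) and for Ppia and Gm10123 (right), with the sum over the parent and all its copies. Among the PP libraries the coefficient of variation is 41.0% for Rpl17, 16.6% to 31.1% for its 3 copies, 22.3% for Ppia and 44.7% for Gm10123, and 7.92% and 7.41% for the sums.

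Identity to the parent went with the direction across all members. Of 519 members with identity under 90%, 18 rose and 247 fell, with a median log2 fold change of -2.22, while the median of their parents was 0.57. Of the 80 of them with at least 100 counts, 13 rose and 36 fell, with a median of -0.73. Of 340 at 90% to under 95%, 10 rose and 109 fell, with a median of -0.87. Of 538 at 95% to under 98%, 77 rose and 59 fell, with a median of 0.27. Of the 694 at 98% or more, 233 rose and 45 fell, with a median of 0.48 beside 0.53 for their parents. Of all genes tested, 27.2% rose and 35.7% fell, and many diverged members are low ones that could pass the sum through PA/OA alone. The medians of sense intronic genes and TEC models were -1.88 and -2.28, so falls of this size were not particular to diverged members. With library size alone, the median was -2.64 under 90% and 0.03 at 98% or more, and with the abundance trend removed it was -1.29 and 0.93.

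The pair's values drew together as identity grew. The median size of the difference between a member and its closest protein-coding gene was 2.63 on the log2 scale under 90%, 1.45 at 90% to under 95%, 0.56 at 95% to under 98% and 0.31 at 98% or more. Pearson's r was 0.03 over 498 pairs under 90% and 0.54 over 689 pairs at 98% or more. Diverged members also had fewer counts, with a median of 37 under 90% and of 222 at 98% or more. Among members with at least 100 counts, r was 0.09 over 79 pairs and 0.71 over 442. These values describe pairs measured in the same libraries, and many pairs share a parent.

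**Figure D4:**
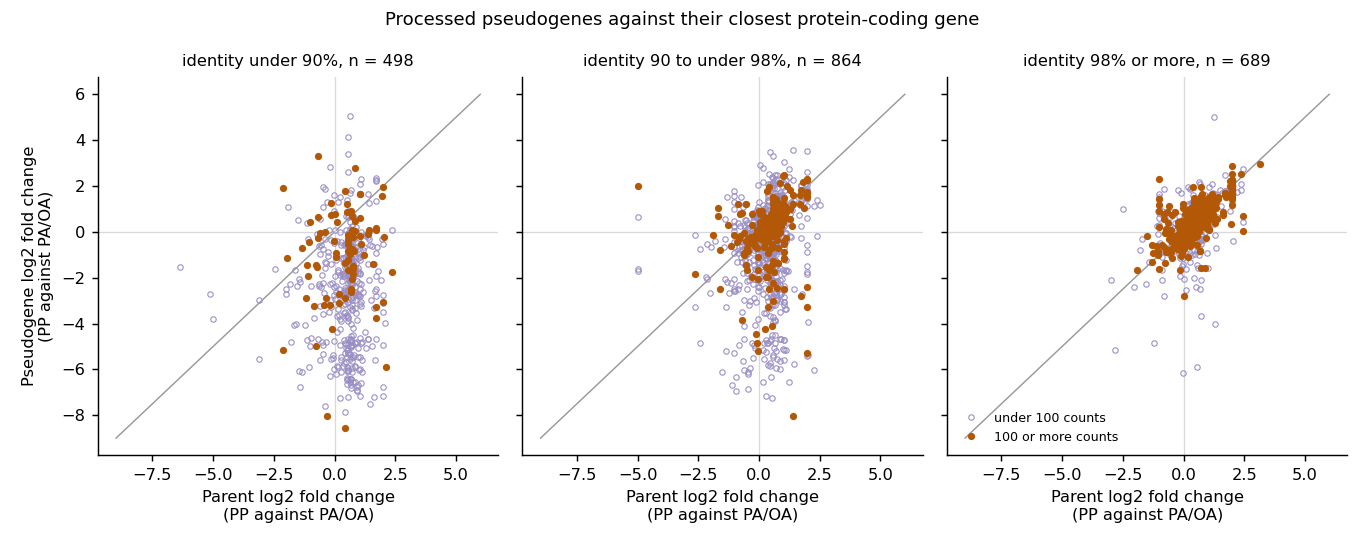
Log2 fold change of each processed pseudogene against that of its closest protein-coding gene, in 3 classes of identity, with the line of equality. At 98% or more the points gather along the line (r = 0.54, n = 689), while under 90% they spread downward from parents whose median is 0.57 (r = 0.03, n = 498).

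Position gave a second division. Of 1026 members over no other gene of the table, 214 rose and 95 fell, with a median of 0.37 that turned to -0.07 with library size alone. Of 612 lying opposite to a protein-coding gene, 592 of them in an intron, 63 rose and 232 fell, with a median of -1.13. Of 354 on the same strand as a protein-coding gene, 345 of them in an intron, 35 rose and 109 fell, with a median of -0.68. Of 118 over other kinds of genes alone, 28 rose and 28 fell, with a median of 0.23. In that order, 20.9%, 10.3%, 9.89% and 23.7% rose, and 9.26%, 37.9%, 30.8% and 23.7% fell. Beside these stand 27.2% higher and 35.7% lower of all genes tested. The shares that fell over protein-coding genes thus lay near that of all genes. Members over a protein-coding gene were also the more diverged: they made up 74.6% of those with identity under 90% and 29.8% of those at 98% or more.

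These directions rest on low members and on the scaling. Of members with at least 100 counts, 57 rose and 40 fell on the opposite strand, or 34.3% and 24.1% (median 0.22). On the same strand 32 rose and 25 fell, or 27.6% and 21.6% (median 0.21). Over no gene 193 rose and 38 fell, or 43.8% and 8.62% (median 0.49). Of all genes tested, 15.6% were higher and 48.7% lower at 100 to under 1000 counts, and 50% and 31.9% at 1000 or more. A background share over all genes with at least 100 counts was not computed, so these counts of calls are descriptions. With the abundance trend removed, 107 rose and 128 fell on the opposite strand, and 75 rose and 62 fell on the same strand (median 0.11).

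The difference by position varied with identity. Of 207 members of at least 98% identity over a protein-coding gene, 70 rose and 19 fell, with a median of 0.41. Of 487 such members not over one, 163 rose and 26 fell, with a median of 0.53. At 90% to under 98%, 17 rose and 128 fell of 359 over a protein-coding gene (median -0.96), while 70 rose and 40 fell of 519 that were not (median 0.37). Under 90% identity, the medians were -2.27 for 387 members over a protein-coding gene and -1.96 for 132 that were not. The sources used here do not give whether strand was used in counting, so reads of an intronic copy and of the unspliced host message cannot be told apart. Over 386 members with identity under 90% and a tested host, the hosts' median log2 fold change was 0.20 against -2.26 for the members, and Pearson's r was 0.32.

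**Figure D5:**
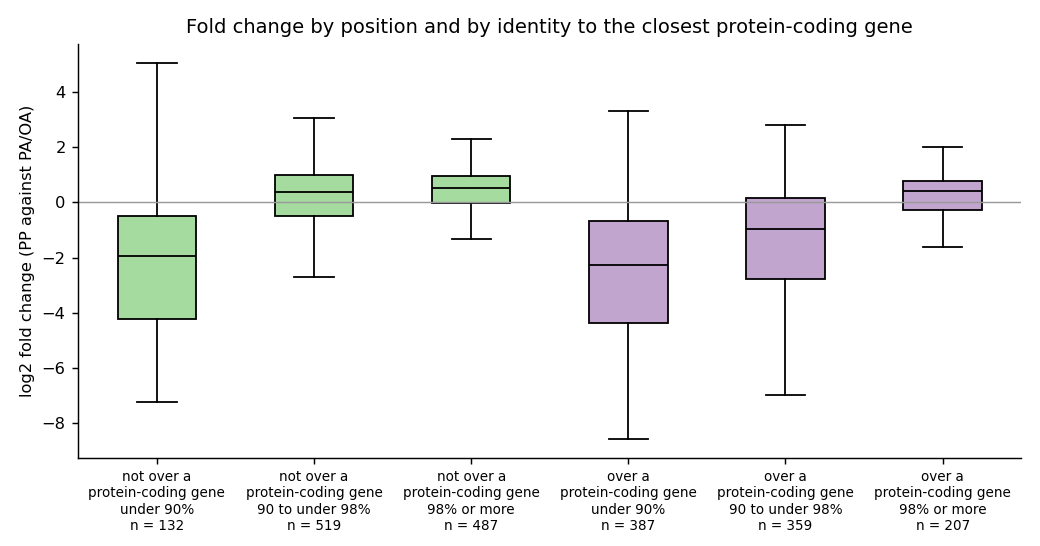
Log2 fold change of the members by position and identity; boxes give the quartiles, the line the median, and points beyond the whiskers are not drawn. Medians are -1.96, and -2.27 over a protein-coding gene, at identity under 90%, and 0.53 and 0.41 at 98% or more.

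A reading frame of at least 95% of the parent's coding length was found in 384 members, of which 131 rose and 33 fell, with a median of 0.56. Of the 1707 with a shorter frame, 207 rose and 427 fell, with a median of -0.30. Those shares were 34.1% higher and 8.59% lower, and 12.1% and 25.0%, against 27.2% and 35.7% of all genes tested. The classes also differed in depth, with medians of 164.5 and 48 summed counts, and direction went with counts. Among members of at least 98% identity the gap was narrower, with 116 higher and 23 lower of 289 with the long frame (median 0.61), and 117 higher and 22 lower of 405 without (median 0.40). Their median summed counts were 266 and 191. The part of depth in this gap was not tested.

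The largest rises, among called members with at least 100 counts and groups apart, were led by Gm18935. It lies at chr9:118571608-118572271, opposite to an intron of Golga4, which encodes a golgin of the trans-Golgi. It had 29, 28 and 30 counts in PA/OA and 262, 257 and 234 in PP, a log2 fold change of 3.31 ± 0.21 (edgeR adjusted p = 8.05e-13). The libraries of a group were almost level. Golga4 had 1.34 ± 0.06, and the closest protein-coding message, Pimreg, only 89.1% identical, had -0.70 ± 0.14. Gm11688, in an intron of Snx5 on the same strand, went from 0.736 ± 0.0883 to 5.13 ± 1.80 CPM, with 2.79 ± 0.30. Snx5, a sorting nexin, had 1.29 ± 0.06, and Rpl10, which Gm11688 resembles, had 0.82 ± 0.05.

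The other 4 lay over no gene. Gm37784 had 5, 4 and 5 counts in PA/OA and 35, 37 and 26 in PP, a log2 fold change of 2.98 ± 0.52 (edgeR adjusted p = 2.51e-05). Its 189 bases differ at 2 positions from the message of Insig1, which holds back SREBP processing when sterols are plentiful, and Insig1 had 3.13 ± 0.06. Gm7336, a Gapdh copy with an unbroken frame, had 118, 87 and 71, and 305, 1107 and 379 counts, with 2.87 ± 0.30. PP replicate 2 stood far above the other PP libraries; without it the log2 fold change was 2.13, and the adjusted p with the robust prior was 0.0176. Gm16374, another Gapdh copy, went from 0.298 ± 0.157 to 1.73 ± 0.118 CPM, with 2.52 ± 0.45. Gm12240, which matched no protein-coding message, had 9, 17 and 5, and 59, 57 and 56 counts, with 2.67 ± 0.41.

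The 6 largest falls all lay in introns of protein-coding genes, 5 of them on the opposite strand. Gm13854, the diverged Hspa8 copy within Exoc4, had 22, 61 and 65 counts in PA/OA and 0 in every PP library. It thus passed the summed-count threshold through PA/OA alone. Against a floor of 3 counts over the group it was at least 43.0-fold lower in PP, while Exoc4, a subunit of the exocyst, had 0.49 ± 0.06 and Hspa8 0.44 ± 0.06. Gm13315, the diverged Ldha copy on the same strand as Cacnb2, had 55, 31 and 21 counts in PA/OA and 0 in PP, at least 31.1-fold lower. Cacnb2, a calcium channel subunit, had -0.02 ± 0.10 and Ldha had 1.41 ± 0.05. Gm18942, opposite to Nhsl1, had 26, 47 and 32 counts and 0 in PP, at least 30.5-fold lower, with -0.06 ± 0.09 for Nhsl1.

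The other 3 kept a few counts in PP. Gm17083, opposite to Ripk1, had 45, 76 and 41 counts in PA/OA and 0, 2 and 0 in PP. Its ratio of PA/OA to PP was 70.6, with a 95% exact interval of 19.2 to 588 that covers counting error only. Gm7985, a Gapdh copy of 92.0% identity opposite to Daam1, had 31, 46 and 72 counts and 0, 1 and 2, a ratio of 43.3 (14.5 to 212). Gm5842, an Hmgb1 copy opposite to Tbl1xr1, had 38, 32 and 28 and 0, 0 and 2, a ratio of 42.7 (11.5 to 358). The hosts Ripk1, Daam1 and Tbl1xr1 had -0.58 ± 0.07, -0.40 ± 0.06 and 0.55 ± 0.07, far from the fall of the members within them. In all, 179 members were at 0 in PP and 3 in PA/OA. Members at 0 in a group passed the summed-count threshold through the other group alone, as Gm13854, Gm13315 and Gm18942 did through PA/OA. The share of all genes tested that were at 0 in either group was not computed, so these counts are a description.

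Some abundant members fell with their parents. Vcp-rs, a copy of the AAA ATPase Vcp on chromosome X, had 4448, 4367 and 4092 counts in PA/OA and 2624, 3212 and 3236 in PP. Its log2 fold change was -0.31 ± 0.06 (edgeR adjusted p = 3.53e-05) beside -0.38 ± 0.06 for Vcp. Gm7993, a copy of the polyamine enzyme gene Odc1, went from 106 ± 2.93 to 75.4 ± 3.94 CPM, with -0.48 ± 0.06 beside -0.47 ± 0.06. Both were named after their values were seen.

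The 4 members with most counts that did not pass the test were Eif4a-ps4, Impdh2-ps, Ptges3-ps and Gm3375; Eif4a1 and Impdh2 did not pass it either, while Ptges3 and Psmb5 did. Eif4a-ps4, closest to the initiation factor gene Eif4a1, had 4206, 4035 and 3776 counts in PA/OA and 2999, 3902 and 3514 in PP. Its log2 fold change was -0.01 ± 0.06 (edgeR adjusted p = 0.872) beside -0.05 ± 0.05. Impdh2-ps had 0.04 ± 0.07 beside 0.04 ± 0.06 for Impdh2, an enzyme of guanine nucleotide synthesis. Gm3375, closest to the proteasome gene Psmb5, had -0.11 ± 0.08 beside -0.24 ± 0.09 (edgeR adjusted p = 0.226 and 0.0289), and the call of Psmb5 as lower was lost without PA/OA replicate 3 or PP replicate 3. Ptges3-ps had 1253, 1418 and 1389 counts in PA/OA and 1084, 1109 and 1270 in PP, -0.03 ± 0.08, while Ptges3, the co-chaperone p23, had 0.57 ± 0.06. It is identical to Ptges3 over 480 bases, and per 100 counts of Ptges3 it had 31.5, 34.3 and 38.8 in PA/OA and 24.5, 21.2 and 23.1 in PP, which do not overlap.

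The genes of 2 pathways that act on such RNAs or on their making were set beside the members, from lists of general knowledge. Of 15 genes of nonsense-mediated decay, which removes messages with early stop codons, 9 rose and 4 fell, with a median of 0.31. The kinase gene Smg1 had 0.52 ± 0.05 and Casc3 had 0.86 ± 0.06, while Rbm8a had -0.66 ± 0.08 and Upf3b had -0.51 ± 0.08. Of 16 tested genes linked to the control of LINE-1, the element whose reverse transcriptase makes processed copies, 6 rose and 7 fell, with a median of 0.08. The genes of the HUSH complex and its partners did not move together: Fam208a had -1.88 ± 0.10, Pphln1 -1.20 ± 0.07 and Morc2a -1.48 ± 0.06, while Mphosph8 had 0.96 ± 0.09 (each called by edgeR). Apobec3, a cytidine deaminase, had -2.05 ± 0.15. Beside both lists stand 27.2% higher and 35.7% lower of all genes tested, and 50% and 31.9% of genes with 1000 counts or more. The counts of calls in the lists are therefore descriptions. How these genes bear on the pseudogenes was not tested.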

How the data were processed

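The values used are whole-number read counts for each gene as the authors deposited them. The submitters' processing notes name featureCounts, DESeq2 1.16.1 and mm10, with no role; the sources used here name no aligner, annotation or strand setting. Symbols, biotypes and coordinates came from the table. The members and lists were chosen with earlier results of these data known.

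Counts of the 21055 genes with 10 or more summed counts were tested in R 4.3.3 with edgeR 4.0.16 (TMM, glmQLFit, two-sided glmQLFTest, Benjamini-Hochberg, threshold 0.05; SE from the fold change and F), which was tested on simulated data. CPM are TMM-scaled. Members were named as the 8 with most counts, the 6 largest changes each way (called, 100 or more counts, groups apart), the 10 highest with a parent in the name, the 4 highest not called, and 5 after their values were seen; host genes were added. The closest message was the best plus-strand BLASTn hit (BLAST+ 2.17.0, E of 1e-10 or less) among GENCODE M21 protein-coding transcripts, on the same build: 2094 of the 2110 members had the table's coordinates there, and 83 had tied parents. Sequence classes and role groups were added after seeing the files. Alternatives were other scalings and filters, DESeq2 1.42.0, limma-voom (limma 3.58.1), a replicate block, halved counts, abundance trend removal (lowess span 0.4), leaving out each library and, added after seeing the data, a robust prior.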

Additional observations from a re-analysis of the deposited data

How the results depend on the processing

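The counts of 340 members higher and 464 lower ran from 300 to 328 and from 375 to 414 when a library was left out, and the median from -0.162 to -0.0337. For members over no gene these were 183 to 207, 68 to 79 and 0.27 to 0.38, and for members over a protein-coding gene 89 to 96, 275 to 319 and -1.20 to -0.949. With library size only, 178 members were higher, with a median of -0.53; over no gene 109 were higher and 173 lower, median -0.0739; over a protein-coding gene 52 were higher, median -1.43. With the abundance trend removed, 622 were higher and 250 lower, median 0.55; over no gene 395 and 44, median 0.94; over a protein-coding gene 182 and 190, median -0.13. With filterByExpr, which tests fewer members, 230 were lower, median 0.19; over no gene 49, median 0.43; over a protein-coding gene 163, median -0.36. At 1 CPM in 3 libraries, 103 were lower, median 0.38; over no gene 40, median 0.43; over a protein-coding gene 53, median 0.26. Members over no other gene gave 214 higher and 95 lower.

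The median of all members was -0.10 with DESeq2 size factors, DESeq2, limma-voom or halved counts, -0.22 with upper-quartile scaling and -0.18 with TMM from protein-coding genes. Over no gene it was 0.23 with upper-quartile scaling, 0.28 with TMM from protein-coding genes, 0.34 with limma-voom and 0.35 with halved counts. Over a protein-coding gene it was -1.13, -1.09, -1.05 and -1.03, and -1.03 with DESeq2. Replicate numbers did not pair the libraries: deviations of same-numbered libraries correlated at 0.02, 0.03 and -0.06. With the replicate block, 313 members were higher and 341 lower, median -0.10; over no gene 60 were lower, median 0.35, and over a protein-coding gene the median was -1.07. Left-out libraries gave -0.0911 to -0.0148 for the median difference of named pairs. That difference, -0.07, was 0.021 at 1 CPM in 3 libraries, 0.0207 for pairs with 100 or more counts and 0.85 with the trend removed.

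Of 1495 values of the 36 named members and 43 parents or hosts under alternatives, 1415 kept direction and call, 40 lost a call, 23 gained 1 and 17 reversed. With library size only, Impdh2-ps was -0.41, Impdh2 -0.41, Rpl30 -0.13, Hspa8 -0.011, Rpl17 -0.0241 and Ppia -0.0762. With the trend removed, Rps2-ps13 was -0.026, Gm15772 -0.22, Impdh2-ps -0.17, Impdh2 -0.38, Rpl3 -0.19, Eef1g -0.17, Rpl30 -0.0114, Hspa8 -0.29, Rpl17 -0.25, Tpt1 -0.15 and Ppia -0.26. The cause was not tested. The fit without a filter had an infinite prior df, and that with the block 89.9 against 19.4, so a call kept there says little for genes of large spread. With the robust prior 338 members were higher and 466 lower, and Rpl17-ps3, Rpl17, Rpl30, Ppia and Rps2 lost their calls. The median member had 56 counts over 6 libraries, which limits its precision; the smallest change detectable at that depth was not computed.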
